A study of Mus musculus with 6 samples.

Results

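The genes described here are 10 that encode enzymes and a chaperone acting on collagen after its translation: Serpinh1, P4ha1, P4ha2, P4ha3, Plod1, Plod2, Lox, Loxl1, Loxl2 and Loxl3. They were taken by symbol from a table of 13341 genes, and all 10 were found in it. Messenger RNA was measured in 6 libraries of hepatic stellate cells from mouse liver, 3 labelled Nbr1 knock-out and 3 labelled wild type. Both groups were grown for 4 days in medium with 10% fetal bovine serum and sampled under basal conditions, with no treatment. The labels do not say how the knock-out was made, nor the age or number of animals. NBR1 is a selective autophagy receptor related to p62, which Sqstm1 encodes, and the study's title sets these proteins against each other in stellate cells.

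Hepatic stellate cells store vitamin A in the healthy liver, and after injury or on plastic they turn into myofibroblasts that deposit fibrillar collagen. Procollagen chains are hydroxylated on proline and lysine in the endoplasmic reticulum (ER), fold into a triple helix with the help of a dedicated chaperone, and are secreted. Outside the cell, lysyl oxidases turn lysine and hydroxylysine side chains into aldehydes, which react to form the covalent crosslinks that stiffen fibrils. The Nbr1 label itself could not be checked, because reads near the transcript end need not show a deletion elsewhere in the gene.

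The libraries held between 1508518 and 2383879 recovered reads, and all values below are normalized read counts in which 1 read was worth between 0.8398 and 1.334. The kit reads the 3′ end of each transcript, so a value does not grow with transcript length. Nbr1 averaged 189.2 ± 14.1 normalized counts in knock-out libraries and 256.9 ± 46.1 in wild-type libraries (SD, n = 3 each; limma adjusted p = 0.22). Sqstm1 averaged 773.7 ± 113.7 in knock-out and 15.9 ± 7.1 in wild-type libraries (adjusted p = 0.000337), and the labels of the wild-type libraries, where it was almost missing, name no change in Sqstm1. Nbr1 does not check the knock-out label, and the near absence of Sqstm1 leaves the wild-type label in doubt. Why Sqstm1 was so low there was not tested. Knock-out and wild type below therefore mean the libraries so labelled, and every direction rests on those labels. A difference between them cannot be assigned to Nbr1 alone. The libraries also fell into a pair of sets that cut across the genotypes. Set A held knock-out 1, knock-out 3 and wild type 1, and set B held knock-out 2, wild type 2 and wild type 3. Wild type 1 stood apart from its own group, with correlations of log2 values of 0.857 and 0.856 to the other wild-type libraries, against 0.984 between those. To knock-out 1 and 3, of its own set, the correlations of wild type 1 were higher, at 0.875 and 0.888. Knock-out 2 had correlations of 0.946 and 0.924 to knock-out 1 and 3, against 0.981 between those. Its correlations to wild type 2 and 3 were 0.901 and 0.903. Changes within each set are therefore given beside the pooled ones, although each set has a genotype with 1 library. Bulk RNA cannot tell apart fewer cells of a type and less RNA per cell.

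Among the 10 genes, Lox and Loxl1, both crosslinking enzymes, rose in knock-out cells, and none fell. That is 2 of 10 past an adjusted p of 0.05 in limma, beside 6.92% of the 10540 tested genes in either direction and 4.67% in the higher direction. Loxl1 was 6.31-fold and Lox 2.21-fold higher. In 6 genes, P4ha1, P4ha3, Plod2, Lox, Loxl1 and Loxl3, the lowest knock-out library lay above the highest wild-type library, and in no gene was the reverse seen. Of all tested genes, 16.5% had this separation in the higher direction and 30.1% in either. The median log2 change of the 10 was 0.60, beside -0.01 over all tested genes. It was 0.88 within set A, where all 10 changes were positive, and 0.68 within set B, where 8 were. The other genes did not pass the test, and their values follow by role.

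**Figure D1:**
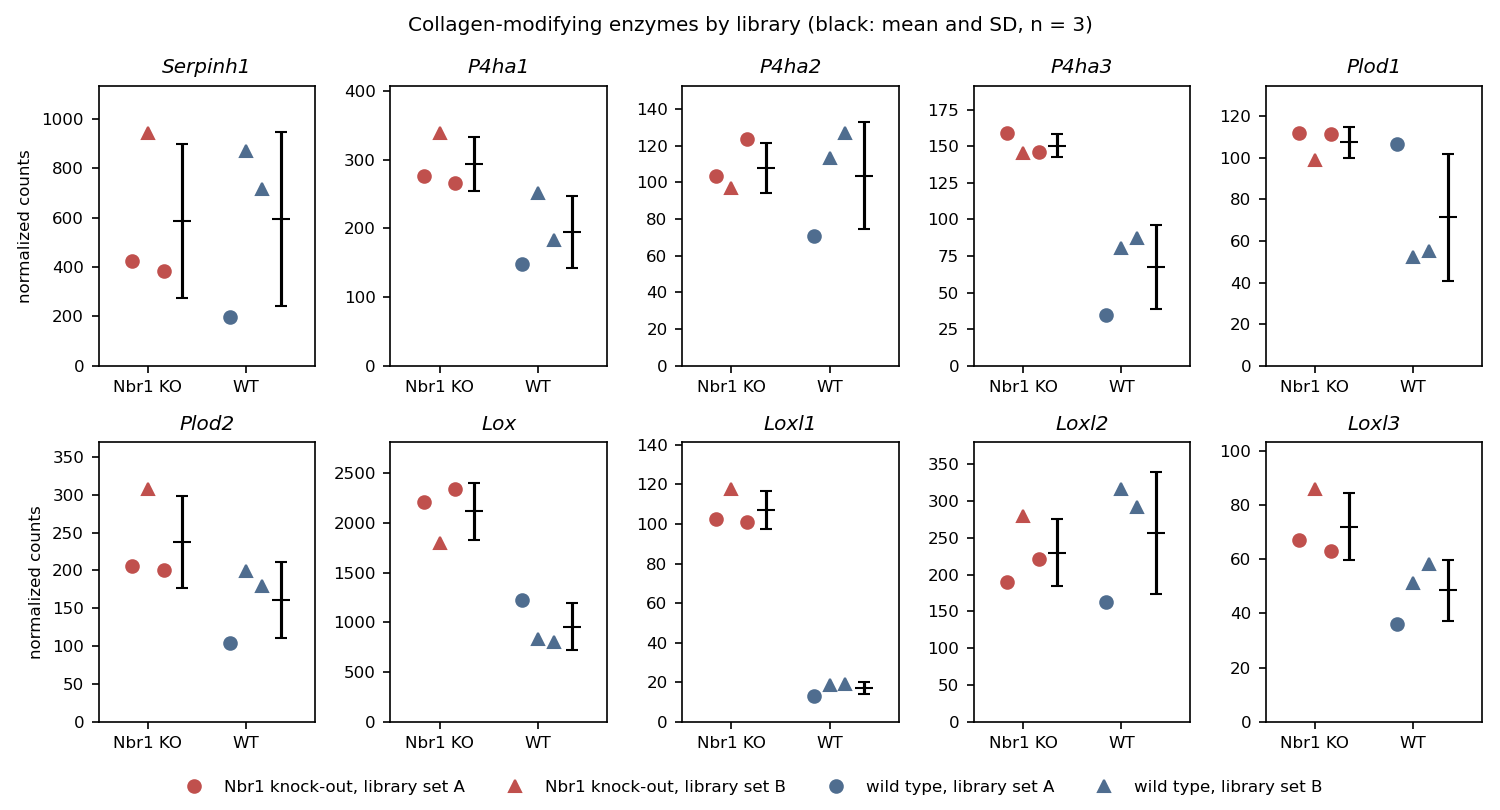
Normalized counts of the 10 genes on linear axes from 0, 1 panel per gene, with each point 1 library and the bars the group mean and SD (n = 3); knock-out libraries stand left of wild-type libraries, and the marker shape gives the library set. Loxl1 lies between 100.9 and 117.7 in knock-out and between 13.3 and 19.1 in wild-type libraries, while Serpinh1, P4ha2, Plod1 and Loxl2 overlap between the genotypes.

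Serpinh1 encodes HSP47, the ER chaperone that binds folded procollagen. It gave 424.5, 945.4 and 385.6 normalized counts in knock-out libraries 1 to 3, against 198.8, 870.9 and 715.5 in wild-type libraries 1 to 3. The values followed the library set more than the genotype, with the set B library highest in the knock-out group and the set A library lowest in wild type. The pooled log2 change was 0.11 (SE 0.61, 95% interval -1.34 to 1.55, adjusted p = 0.945), an interval that leaves changes of more than 2-fold in either direction possible. Within the sets the log2 changes were 1.02 in set A and 0.26 in set B.

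Collagen prolyl 4-hydroxylase makes the hydroxyproline that keeps the triple helix stable at body temperature. Its catalytic alpha subunit comes from P4ha1, P4ha2 or P4ha3, and its beta subunit is the disulfide isomerase encoded by P4hb. P4ha1, the most abundant alpha subunit here, had 276.1, 339.5 and 265.8 normalized counts in knock-out cells, against 148.1, 251.9 and 183.4 in wild-type cells. The lowest knock-out value was above the highest wild-type value, and the 1.51-fold difference did not pass the test (log2 change 0.62, SE 0.22, adjusted p = 0.163). On the log2 scale it was 0.87 within set A and 0.66 within set B.

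P4ha3, the most recently identified alpha subunit, had 159.3, 145.2 and 146.0 normalized counts in knock-out cells, against 34.7, 80.6 and 87.2 in wild-type cells. The knock-out libraries agreed closely and all wild-type libraries lay below them, with wild type 1 the lowest. The 2.23-fold difference missed the threshold in limma (log2 change 1.25, SE 0.35, adjusted p = 0.0906). Its log2 change was 2.10 within set A and 0.79 within set B. P4ha2 had 103.2, 97.1 and 123.4 normalized counts in knock-out cells, against 70.7, 113.4 and 127.1 in wild-type cells. These groups overlapped (log2 change 0.09, 95% interval -0.51 to 0.70, adjusted p = 0.88), with changes of 0.67 in set A and -0.30 in set B.

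The summed alpha subunits gave 538.6, 581.9 and 535.2 normalized counts in knock-out cells, against 253.5, 445.9 and 397.7 in wild-type cells. P4ha3 supplied 27.27 ± 2.308% of this sum in knock-out and 17.89 ± 4.12% in wild-type libraries, with no overlap. P4ha2 supplied 16.69 to 23.06% in knock-out and 25.42 to 31.96% in wild-type libraries, also without overlap. The share of P4ha1 overlapped, at 49.67 to 58.35% in knock-out and 46.12 to 58.42% in wild-type libraries. In exact two-sided permutation tests the sum and the shares of P4ha2 and P4ha3 reached p = 0.1, the smallest that 3 against 3 libraries allow, and P4ha1 gave p = 0.9. Over the 27 sums, shares and ratios compared by exact permutation, p = 0.1 became 0.18 after Benjamini-Hochberg adjustment. P4hb, the shared beta subunit, had 1261.6 ± 75.7 normalized counts in knock-out and 1223.5 ± 88.0 in wild-type libraries (limma adjusted p = 0.871).

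**Figure D2:**
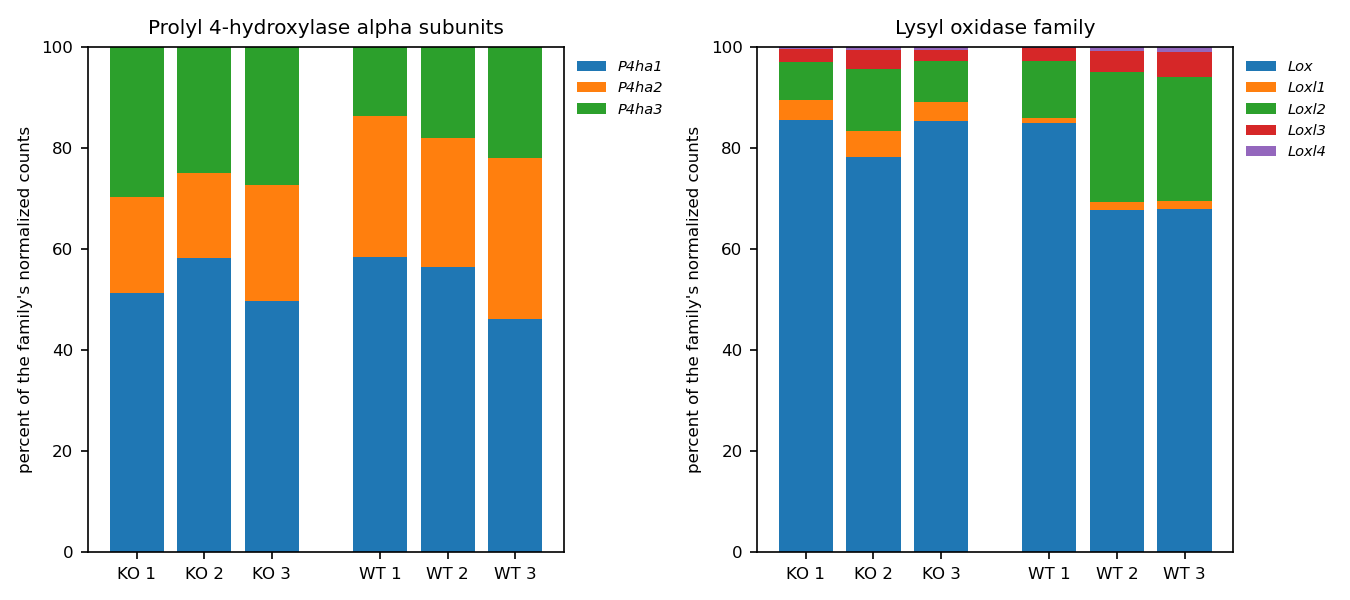
Shares of the prolyl 4-hydroxylase alpha subunits and of the lysyl oxidase family by gene, in percent of the family's summed normalized counts, 1 stacked bar per library with knock-out libraries left of wild-type libraries. P4ha3 takes 24.96 to 29.58% of the prolyl 4-hydroxylase alpha subunits in knock-out and 13.68 to 21.92% in wild-type libraries, while Lox takes the largest share of the lysyl oxidases in all 6 libraries.

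The alpha subunit promoters are shown because these 3 genes share 1 enzyme and differed in their values, and because P4ha1 and P4ha2 are known targets of hypoxia-inducible factors. Sequences are from RefSeq on the GRCm38.p6 build, all on the plus strand and 5′ to 3′, and end before the first annotated gene start. Capitals mark ACGTG and GCGTG, both forms of the core of the hypoxia response element, on either strand, where CACGT and CACGC are the reverse complements. The P4ha1 stretch is chr10:59323046-59323196, that of P4ha2 is chr11:54100674-54100923, and that of P4ha3 is chr7:100285270-100285488.
P4ha1: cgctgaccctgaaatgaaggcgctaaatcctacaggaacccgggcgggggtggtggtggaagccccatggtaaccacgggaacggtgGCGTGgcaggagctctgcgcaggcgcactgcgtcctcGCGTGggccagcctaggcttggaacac
P4ha2: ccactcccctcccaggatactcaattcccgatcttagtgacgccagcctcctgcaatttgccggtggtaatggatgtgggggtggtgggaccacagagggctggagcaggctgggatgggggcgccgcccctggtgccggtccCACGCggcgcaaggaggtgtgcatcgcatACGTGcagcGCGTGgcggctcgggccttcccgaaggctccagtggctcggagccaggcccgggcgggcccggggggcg
P4ha3: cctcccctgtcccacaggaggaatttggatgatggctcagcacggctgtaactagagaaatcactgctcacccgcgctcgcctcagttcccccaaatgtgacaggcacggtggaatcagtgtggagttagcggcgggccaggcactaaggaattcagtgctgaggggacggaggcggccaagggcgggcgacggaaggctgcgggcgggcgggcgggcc
In the 250 bases before the listed start, P4ha1 held 3 matches, of which 2 are in the stretch shown, P4ha2 held 3 and P4ha3 held 0. Plod1 and Serpinh1 held 1 each. Of 32851 mouse promoters of this length, 38.6% held at least 1 match and 6.6% held 3 or more, while 16.6% held ACGTG and 28.2% held GCGTG. The palindrome CACGTG, which contains ACGTG, was in none of these 5 windows. Promoters of Plod2, Lox, Loxl1, Loxl2 and Loxl3 are not shown. A match is a run of letters and not a bound site, and no binding was measured here.

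Lysyl hydroxylases modify collagen lysines before folding. Plod2 encodes the enzyme that acts on the telopeptides and so steers crosslinks toward the hydroxylysine-derived form. It had 205.5, 307.7 and 200.5 normalized counts in knock-out cells, against 104.1, 199.9 and 178.9 in wild-type cells. The groups touched without overlapping, with 0.96 within set A and 0.70 within set B on the log2 scale, and the pooled change of 0.59 did not pass (SE 0.30, adjusted p = 0.309). Plod1, which acts mainly on helical lysines, had 112.2, 98.8 and 111.5 normalized counts in knock-out cells, against 106.7, 52.1 and 55.4 in wild-type cells. Here wild type 1 lay inside the knock-out range and the other wild-type libraries well below it (log2 change 0.66, SE 0.29, adjusted p = 0.247). Within set A, where wild type 1 is the comparison, it was 0.07 on the log2 scale, and 0.87 within set B. The third enzyme, Plod3, averaged 149.3 ± 17.9 in knock-out and 112.8 ± 11.0 in wild-type libraries (adjusted p = 0.216). The sum of the 3 hydroxylases was 487.0, 541.5 and 455.7 in knock-out cells, against 336.2, 356.9 and 342.3 in wild-type cells. These sums did not overlap (exact permutation p = 0.1, adjusted 0.18), and each gene's share of them did.

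Lysyl oxidases are secreted, copper-dependent amine oxidases. Lox encodes the founding member, which acts on fibrillar collagen and elastin. It had 2205.1, 1797.1 and 2340.0 normalized counts in knock-out cells, against 1227.4, 830.6 and 806.2 in wild-type cells. All knock-out libraries lay above all wild-type ones, and within each genotype the set A libraries were the higher. The log2 change was 1.16 (SE 0.20, 95% interval 0.69 to 1.64, adjusted p = 0.0187), with 0.89 within set A and 1.13 within set B. The call was lost when any of 4 libraries was left out, with adjusted p-values of 0.0809 without wild type 2, 0.0755 without wild type 3, 0.111 without knock-out 1 and 0.101 without knock-out 3.

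Loxl1 is best known for the upkeep of elastic fibres. It had 102.3, 117.7 and 100.9 normalized counts in knock-out cells, against 13.3, 18.5 and 19.1 in wild-type cells. The gap between the groups was several times the spread within either, and the wild-type values rested on 53 reads in all, against 335 reads in knock-out libraries. The log2 change was 2.60 (SE 0.22, 95% interval 2.08 to 3.12, adjusted p = 0.0015), with 2.84 within set A and 2.59 within set B. It passed in every alternative setting and without each library in turn, where the adjusted p reached at most 0.0175.

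Loxl2, an oxidase that also crosslinks basement membrane collagen IV, had 190.1, 279.3 and 220.7 normalized counts in knock-out cells, against 162.8, 316.6 and 291.4 in wild-type cells. The groups overlapped, and the log2 change of -0.12 (SE 0.29, 95% interval -0.80 to 0.56, adjusted p = 0.859) was the only negative one among the 10. It was 0.33 within set A and -0.12 within set B. Loxl3, which mice need for palate and spine formation, had 67.0, 85.9 and 62.9 normalized counts in knock-out cells, against 36.0, 51.2 and 58.1 in wild-type cells. The groups were apart by a narrow margin, and the log2 change of 0.57 did not pass (SE 0.25, adjusted p = 0.231), with 0.83 within set A and 0.65 within set B. The last exon of Loxl3 overlaps Htra2 on the opposite strand in the GENCODE mouse annotation, so if strand was not used in counting, their reads cannot be told apart.

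The lysyl oxidase transcripts, with Loxl4 added, summed to 2576.3, 2295.6 and 2738.7 normalized counts in knock-out cells, against 1443.6, 1226.1 and 1187.6 in wild-type cells. Lox made up 78.29 to 85.59% of the sum in knock-out and 67.74 to 85.03% in wild-type libraries, with overlap. Loxl1 made up 3.68 to 5.13% in knock-out and 0.924 to 1.61% in wild-type libraries, without overlap (exact permutation p = 0.1, adjusted 0.18). For each 100 counts of Loxl2 there were 53.81, 42.15 and 45.7 counts of Loxl1 in knock-out cells, against 8.197, 5.836 and 6.542 in wild-type cells. This ratio pairs the gene with the highest change and the one with the lowest, and it mostly restates the change of Loxl1 (exact permutation p = 0.1, adjusted 0.18).

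In mean level the knock-out order was Lox, Serpinh1, P4ha1, Plod2, Loxl2, P4ha3, P4ha2, Plod1, Loxl1 and Loxl3. Neighbours that overlapped in this order were P4ha1 with Plod2, Plod2 with Loxl2, P4ha2 with Plod1, and Plod1 with Loxl1. In wild-type cells the order was Lox, Serpinh1, Loxl2, P4ha1, Plod2, P4ha2, Plod1, P4ha3, Loxl3 and Loxl1, and among neighbours only Loxl3 and Loxl1 did not overlap. By mean over the 6 libraries Lox exceeded 98.9% of tested genes and Serpinh1 94.8%, while Loxl1 exceeded 41.4% and Loxl3 40.5%.

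**Figure D3:**
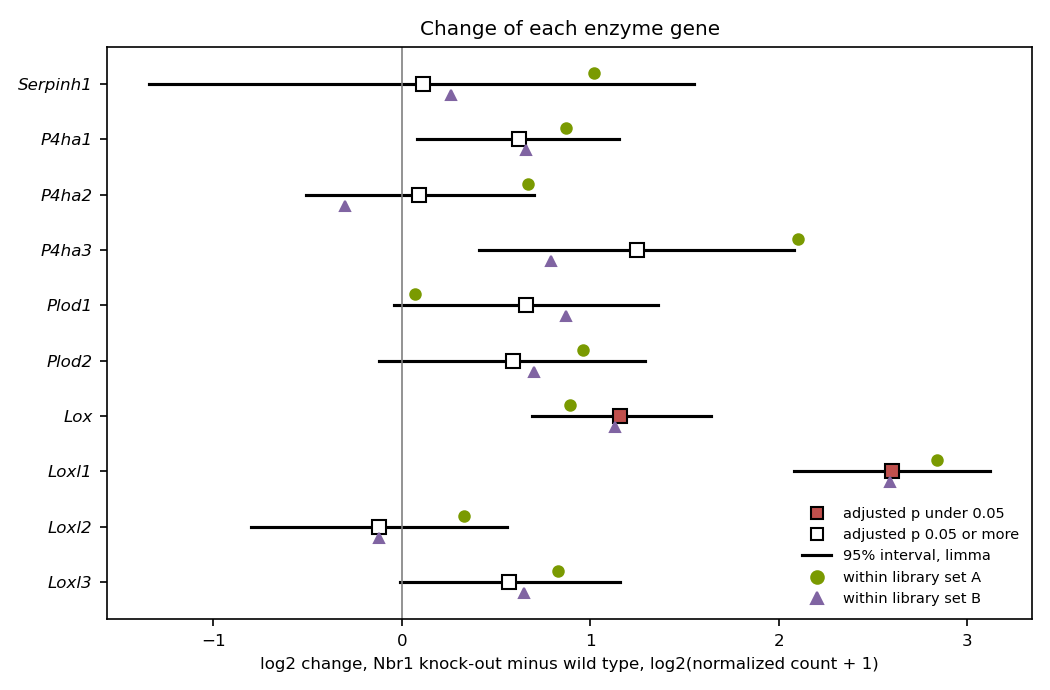
Log2 change of each gene, knock-out minus wild type, with its 95% interval from limma over all 6 libraries and the changes within library set A and set B as separate markers. The intervals of Loxl1 (2.08 to 3.12), Lox (0.69 to 1.64), P4ha3 (0.41 to 2.08) and P4ha1 (0.08 to 1.15) lie above 0 before adjustment over all genes, and the widest is that of Serpinh1.

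How many genes passed depended on the handling of the libraries and on the test. Without wild type 1, 4 of the 10 passed in limma, with P4ha3 (adjusted p = 0.00974) and Plod1 (adjusted p = 0.00828) joining Lox and Loxl1, beside 21.1% of all tested genes. On recovered whole reads edgeR called 2 of the 10, beside 7.27% of tested genes, and DESeq2 called 3, adding P4ha3 (adjusted p = 0.0237), beside 9.02%. With the library set as a term, limma called 7, all higher, beside 26.5% of tested genes. Those were Lox, Loxl1, Plod2 (adjusted p = 0.00166), P4ha3 (0.00383), P4ha1 (0.00543), Loxl3 (0.0129) and Serpinh1 (0.0216). The sets were drawn from the same values, so these p-values are too small.

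Among the substrates of these enzymes, of 14 tested collagen and elastin genes, 5 rose and 0 fell. That stands beside 4.67% of all tested genes called higher, and the list's median log2 change was 1.08. Col1a1, the main chain of type I collagen, averaged 5538.8 ± 320.5 normalized counts in knock-out and 2169.4 ± 33.2 in wild-type libraries (adjusted p = 0.00117). Col5a1, a chain of the collagen V that nucleates fibrils, averaged 367.3 ± 34.7 in knock-out and 117.9 ± 11.8 in wild-type libraries (adjusted p = 0.00192). Eln, which encodes the elastin precursor that Lox and Loxl1 crosslink, averaged 60.9 ± 14.2 in knock-out and 14.5 ± 6.4 in wild-type libraries (adjusted p = 0.0171). Col1a2 and Col5a3 were the other genes that rose. The calls of Eln, Col1a2 and Col5a3 were lost without some single libraries, Eln without 4 of the 6 (adjusted p up to 0.102), Col1a2 without 5 (up to 0.138) and Col5a3 without 3 (up to 0.12).

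The enzymes were also set against the fibrillar chains, a denominator that was chosen after the values were seen. The summed counts of Col1a1, Col1a2 and Col3a1 were 10185.5, 12987.2 and 10271.2 in knock-out cells, against 3909.1, 4935.5 and 4963.7 in wild-type cells, a 2.42-fold difference. A gene with no change of its own therefore has a lower ratio in knock-out libraries, and 78.9% of all tested genes had a lower ratio without overlap, while 2.04% had a higher one. Per 1000 of these counts, Loxl1 had 9.643 ± 0.5117 in knock-out and 3.666 ± 0.2244 in wild-type libraries, and was the only member with a higher ratio and no overlap. The 5 genes P4ha1, P4ha2, Plod2, Loxl2 and Loxl3 had lower ratios without overlap, as most tested genes did, such as 26.37 ± 0.6469 for P4ha1 in knock-out and 41.96 ± 7.883 in wild-type libraries. The ratio of Loxl2 was 20.55 ± 1.636 in knock-out and 54.83 ± 11.75 in wild-type libraries. Lox, P4ha3, Plod1 and Serpinh1 overlapped, with Lox at 194.2 ± 48.7 in knock-out and 214.9 ± 85.9 in wild-type libraries. Ratios without overlap had an exact permutation p of 0.1, adjusted 0.18. A ratio shows unequal change of enzyme and collagen, not which of them changed.

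**Figure D4:**
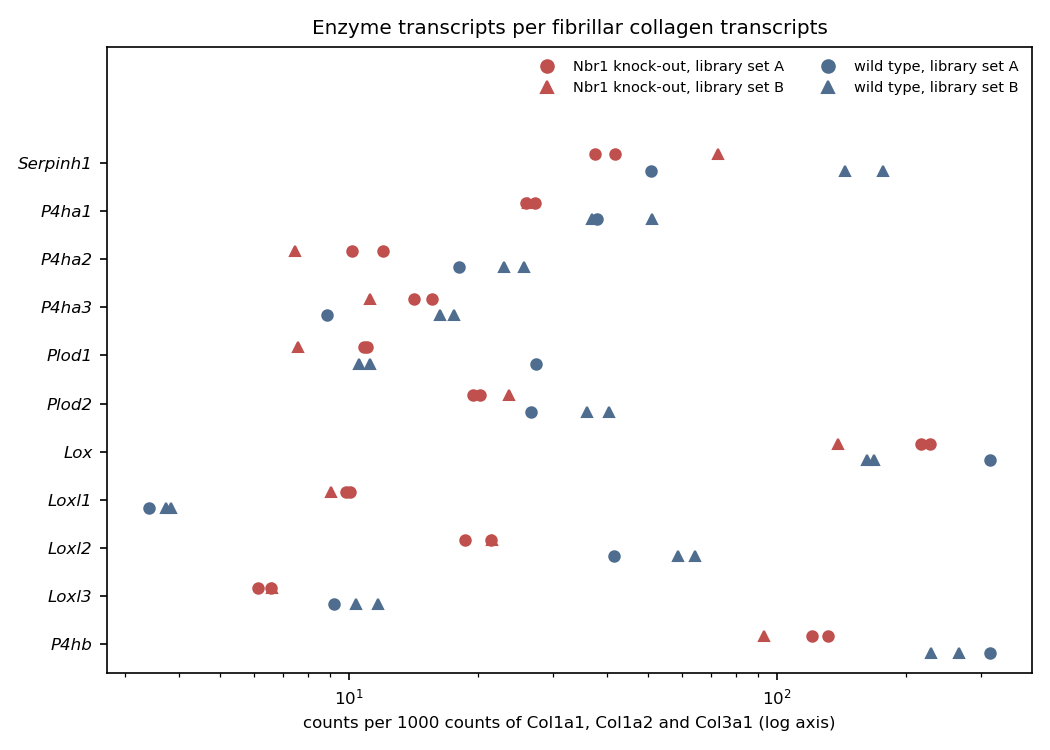
Counts of each enzyme per 1000 counts of Col1a1, Col1a2 and Col3a1 on a log axis, 1 point per library, with knock-out points above wild-type points in each row and the marker shape giving the library set. Loxl1 lies between 9.066 and 10.04 in knock-out and between 3.413 and 3.841 in wild-type libraries, and P4ha1, P4ha2, Plod2, Loxl2, Loxl3 and P4hb lie lower in knock-out libraries without overlap, as did 78.9% of all tested genes.

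Outside the cell, of 11 tested genes of crosslinking and fibril assembly, 5 rose and 0 fell, beside 4.67% of all tested genes called higher. The list's median log2 change was 0.73. Fbln5, an elastic fibre protein that binds Loxl1, averaged 438.5 ± 22.0 normalized counts in knock-out and 107.0 ± 10.0 in wild-type libraries (adjusted p = 0.000792). Postn, a matricellular protein that helps activate Lox, averaged 156.2 ± 38.9 in knock-out and 1.9 ± 0.7 in wild-type libraries (adjusted p = 0.000337). Thbs2, also matricellular, averaged 45.1 ± 4.6 in knock-out and 4.9 ± 2.9 in wild-type libraries (adjusted p = 0.00647). Lum, a fibril-binding proteoglycan, had 46 reads in knock-out and 0 in wild-type libraries, and was at least 14.3-fold higher when 3 reads were assumed over the 3 wild-type libraries. With Lum at this bound the list's median was again 0.73, which could not differ because Lum lay above the median either way. Tgm2, a transglutaminase, averaged 243.2 ± 47.6 in knock-out and 103.4 ± 22.8 in wild-type libraries (adjusted p = 0.0248), a call lost without any of 4 libraries (adjusted p up to 0.139).

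Of 5 tested genes of propeptide processing, 2 rose and 0 fell, beside 4.67% of all tested genes called higher. The list's median log2 change was 0.79. Adamts2, the procollagen N-proteinase, averaged 209.8 ± 14.3 normalized counts in knock-out and 58.6 ± 9.1 in wild-type libraries (adjusted p = 0.00209). Tll1, a C-proteinase, averaged 22.0 ± 4.3 in knock-out and 5.0 ± 2.0 in wild-type libraries (adjusted p = 0.0258), a call that ended when any library except wild type 1 was dropped (adjusted p up to 0.106). Inside the ER, 1 of 12 other folding and hydroxylation genes rose and 0 fell, a share near the 6.92% of all tested genes called, with a median of 0.29. That gene was P3h4, a partner of lysyl hydroxylase 1, at 838.3 ± 42.8 in knock-out and 506.8 ± 74.3 in wild-type libraries (adjusted p = 0.0337). Dropping any library except wild type 1 ended this call (adjusted p 0.0789 to 0.179). Of 9 genes of procollagen secretion, 0 passed in limma in either direction and 2 had an unadjusted p under 0.05, with a median of 0.23. In that list edgeR called 0, DESeq2 1, and limma without wild type 1 called 2, shares near the 9.02% and 21.1% of all tested genes called by DESeq2 and without wild type 1.

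Of 11 tested genes that respond to TGF-beta, the main profibrotic cytokine, 5 rose and 0 fell. Of all tested genes 4.67% were called higher, and the list's median log2 change was 0.61. Acta2, the smooth muscle actin that marks myofibroblasts, averaged 920.8 ± 82.8 normalized counts in knock-out and 173.6 ± 8.7 in wild-type libraries (adjusted p = 0.000337). Tgfbi, Tgfb1i1, Ltbp2 and Pmepa1 were the others. With single libraries left out the count was between 2 and 5, lowest without knock-out 1 or 3. With a library left out, Ltbp2 and Pmepa1 passed only when it was wild type 1 (adjusted p otherwise up to 0.0857 and 0.214), and Tgfb1i1 was lost without knock-out 1 (0.0516) or knock-out 3 (0.051).

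**Figure D5:**
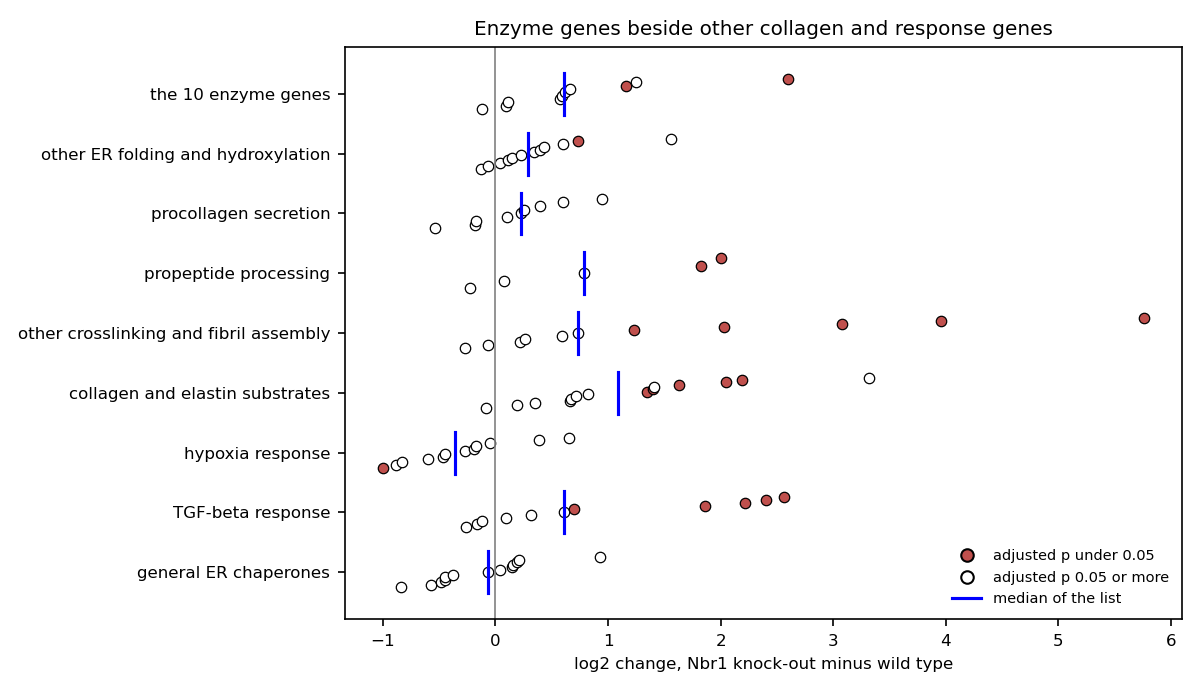
Log2 changes, knock-out minus wild type, of every tested gene in the lists of collagen biology and response genes, with each point 1 gene, filled where it passed the test, and the bar the list's median. Genes of crosslinking, fibril assembly and the collagens reach the highest values, and the point of Lum depends on the pseudocount because it had 0 reads in wild-type libraries.

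The label of the cells was set against marker lists. Of 16 stellate markers, 10 were in the table, among them Vim, Dcn, Pdgfrb, Hand2 and Lhx2, and Lrat, Reln, Des, Hgf, Ngfr and Rgs5 were not analysed here. Of 9 tested, 3 rose (Pdgfrb, Lhx2 and Hand2), beside 4.67% of all tested genes called higher. The list summed to 7582.4 to 9140.3 normalized counts in knock-out and 4530.8 to 6416.1 in wild-type libraries. The count of 3 became 7 without wild type 1, 1 without wild type 2 or 3, and 0 without any single knock-out library. Of all 10540 tested genes, 1277 were called higher without wild type 1, and between 146 and 254 without any other library. Lhx2 (adjusted p up to 0.122) and Hand2 (up to 0.179) passed in a reduced set only when wild type 1 was dropped, and Pdgfrb (up to 0.0923) was lost without each knock-out library. The sums of the mesothelial, smooth muscle and cholangiocyte lists also lay apart between the genotypes. So did the endothelial list, through Kdr alone, on 23 reads in knock-out and 13 in wild-type libraries. Those of the portal fibroblast, hepatocyte and macrophage lists overlapped. The 7 mesothelial markers in the table summed to 1307.1 to 1580.5 in knock-out and 1807.8 to 2112.8 in wild-type libraries. Upk3b fell to 68.0 ± 17.9 in knock-out cells, against 181.5 ± 6.7 in wild-type cells (adjusted p = 0.0112). Of the 6 tested, 1 had a positive log2 change, Msln, at 22.8 ± 3.6 in knock-out and 14.2 ± 4.3 in wild-type libraries (adjusted p = 0.268). The call of Upk3b was lost without wild type 3 (0.051), knock-out 1 (0.0764) or knock-out 3 (0.0598). Without wild type 1, 4 of the 6 tested markers were called lower, beside 951 of all 10540 tested genes. The 4 smooth muscle markers summed to 156.4 to 178.3 in knock-out and 52.7 to 106.7 in wild-type libraries. Of 3 tested, Cnn1 and Lmod1 rose, with 3 and 0 reads in wild-type libraries, beside 4.67% of all tested genes called higher. Smtn, the most abundant, overlapped between the genotypes, at 112.2 ± 11.1 in knock-out and 72.0 ± 29.2 in wild-type libraries (adjusted p = 0.211). The 4 portal fibroblast markers summed to 783.0 to 812.9 in knock-out and 582.0 to 877.9 in wild-type libraries, with Thy1 rising and Cd34 at 130.2 ± 16.8 in knock-out and 228.2 ± 90.9 in wild-type libraries (adjusted p = 0.186). The 4 cholangiocyte markers summed to 541.3 to 570.8 in knock-out and 138.6 to 150.8 in wild-type libraries, mostly through Sox9, while Spp1 fell, a call lost without wild type 3 (adjusted p = 0.0523) or knock-out 1 (0.0749), and Epcam was not analysed here. Of 9 hepatocyte markers, the 5 in the table summed to 15.5 to 46.3 in knock-out and 43.7 to 54.5 in wild-type libraries. Of 8 macrophage markers, the 2 in the table summed to 6.9 to 14.2 in knock-out and 6.4 to 14.7 in wild-type libraries. Of 8 endothelial markers only Kdr was in the table, at 6.0 to 8.3 in knock-out and 3.4 to 5.4 in wild-type libraries. The part of any of these in the changes of Lox and Loxl1 was not tested.

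The profiles most like those of the genes that rose were named by the root mean square distance between centred log2 profiles over the 6 libraries. Nearest to Lox were H2bc12, a histone gene, and Kctd11, both at 0.078. Nearest to Loxl1 were Fgf7, a growth factor of mesenchymal cells, at 0.157 and Stard8 at 0.175. Fgf7 averaged 22.4 ± 3.1 normalized counts in knock-out and 2.9 ± 0.6 in wild-type libraries (adjusted p = 0.00458).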

How the data were processed

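Per the labels' protocols, 200 ng of total RNA went into a QuantSeq 3′ kit (forward version, molecular identifiers optional), read as 75-nucleotide single ends. The sources used here do not give whether counting used identifiers or strand. DESeq2 and the build GRCm39 are named in the submitters' processing notes. The deposited values are normalized counts, a signal that the authors scaled per library, with 1 column each. In every library 100% of values were whole multiples of 1 read's value (tolerance 0.01), so counts were recovered from the deposited table. No gene summed to fewer than 9 reads over all 6. The floor of 3 reads covers counting error only, and 95% intervals are limma's, from the spread between libraries.

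Genes that reached 10 normalized counts in 3 or more libraries (10540) went into limma 3.58.1 (R 4.3.3, variance trend) on log2(value + 1), two-sided, with genotype alone in the model and p-values adjusted after Benjamini-Hochberg, threshold 0.05. Every adjusted p of a gene comes from it unless another tool is named, and every ± is an SD over 3 libraries. Fold changes are ratios of group means of normalized counts. Low genes' log2 changes are understated by the pseudocount. edgeR 4.0.16 and DESeq2 1.42.0 on recovered reads, other filters, pseudocounts and scalings, and single libraries left out were alternatives. Library sets come from clustering of deviations from group means.

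The 10 genes and the lists were chosen with earlier results of these data known, so no p-value was adjusted over them alone. Named were all 10, Nbr1, Sqstm1, up to 4 genes of each list with the smallest p plus those needed for counts of 5 or fewer, and the 2 profiles nearest to each called gene. Vim, Dcn, Epcam and Kdr are named from the marker lists only to state what was in the table. p-values assume separate cultures. The labels do not say whether these came from separate animals, so the spread may be partly technical.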

Additional observations from a re-analysis of the deposited data

How the results depend on the processing

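Lox was called in 13 of 17 alternatives and lost its call in the 4 that left out a library as named above, and Loxl1 was called in all 17. No planned change of filter, pseudocount, scaling or variance trend altered which of the 10 genes passed, and the exceptions were DESeq2 and libraries left out. The number of the 10 called ranged from 1 to 4 when single libraries were left out, lowest without knock-out 1, knock-out 3, wild type 2 or wild type 3 and highest without wild type 1. It was 3 in DESeq2 and 7 with a term for the library sets, which was added after the data were seen. The number of all genes called was 729, and became 380 with a mean of at least 50 as the filter, 476 with the replicate block and 2791 with the library sets as a term. It ranged from 200 without knock-out 1 to 2228 without wild type 1. Signs turned for the 3 genes nearest to 0. Serpinh1 had log2 changes of -0.01 in edgeR and -0.03 in DESeq2, and from -0.55 without wild type 1 to 0.51 without wild type 2. P4ha2 ranged from -0.16 without wild type 1 to 0.26 without wild type 3, and was -0.30 within set B. Loxl2 ranged from -0.42 without wild type 1 to 0.06 without wild type 2, was 0.10 with the library sets as a term and was 0.33 within set A. The causes were not tested. With the replicate block, 2 of the 10 were called, Lox (adjusted p = 0.027) and Loxl1 (adjusted p = 0.00582). Same-numbered libraries had correlations of deviations of 0.45, 0.70 and -0.62, positive only where both lay in the same library set. These values cannot show whether the replicate numbers pair the libraries. With 3 libraries a group, the 95% intervals of 6 of the 10 genes included 0, which does not show that those genes were alike in both genotypes. Loxl1 in wild type, with 53 reads, was the least deeply counted of the 10.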

Other observations

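Genes that respond to low oxygen were described by a list that holds none of the 10 genes. Of 12 tested, 1 fell and 0 rose, a share near the 6.92% of all tested genes called, 2 had a positive log2 change, and the median was -0.36. Without wild type 1, limma called 3 lower, beside 951 of all 10540 tested genes. With the library sets as a term it called 1 higher and 2 lower, beside 26.5% of all tested genes. The 15 in the table summed to 2090.8 to 2118.2 normalized counts in knock-out and 2566.9 to 2776.4 in wild-type libraries. Hk2, a hexokinase, averaged 36.7 ± 6.6 normalized counts in knock-out and 73.9 ± 1.9 in wild-type libraries (limma adjusted p = 0.0313). The call ended when any library except wild type 1 was dropped (adjusted p up to 0.145). Bnip3, a mitophagy receptor, averaged 152.5 ± 27.5 in knock-out and 231.2 ± 41.5 in wild-type libraries (adjusted p = 0.139), and Slc2a1, a glucose transporter, 163.9 ± 3.2 in knock-out and 231.1 ± 48.3 in wild-type libraries (adjusted p = 0.18).

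Of 13 general ER chaperones, 0 passed in limma or in edgeR in either direction and 3 had an unadjusted p under 0.05 in limma, with a median log2 change of -0.07. DESeq2 called 1, higher, and limma without wild type 1 called 1 higher and 2 lower, shares near the 9.02% and 21.1% of all tested genes called in those settings. With the library sets as a term, limma called 1 higher and 5 lower, beside 26.5% of all tested genes, with p-values that are too small. The 13 summed to 7820.2 to 8387.4 normalized counts in knock-out and 9152.9 to 10531.8 in wild-type libraries, while 6 had a positive log2 change. Dnajb11, a co-chaperone of BiP, averaged 192.1 ± 26.1 normalized counts in knock-out and 101.9 ± 23.7 in wild-type libraries (adjusted p = 0.0585). Canx, the lectin chaperone calnexin, averaged 1182.0 ± 42.1 in knock-out and 1554.9 ± 242.7 in wild-type libraries (adjusted p = 0.171).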
